A study of Mus musculus with 8 samples.

Results

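Semaphorins are guidance cues, first described as signals that steer growing axons, which also act on blood vessels, lymphatics, epithelium and immune cells. Secreted class 3 semaphorins bind the co-receptors neuropilin-1 and neuropilin-2 (Nrp1 and Nrp2), which pass the signal to plexins, while the membrane-bound classes bind plexins directly. Plexins are single-pass receptors whose cytoplasmic part inactivates small GTPases and thereby changes adhesion and the actin cytoskeleton. Neuropilins also bind members of the vascular endothelial growth factor (VEGF) family, so that both ligand families meet on the same receptor on endothelial cells. The genes described here are every row of the count table whose symbol begins with Sema3 to Sema7 and a letter a to g, or with Plxn, a letter a to d and a number, together with Nrp1 and Nrp2. The rule took 32 of the 27179 rows, which are 20 semaphorins, 9 plexins, 2 neuropilins and 1 antisense RNA, Plxna4os1, whose gene lies opposite Plxna4.

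RNA was measured in cells sorted from the lungs of female C57BL/6 mice (C57BL/6J in the study's methods) carrying the Eml4-Alk rearrangement, which Cas9 and a pair of guide RNAs delivered to the airways by adenovirus had induced to start lung tumors. All mice were 18 to 22 weeks old and 11 to 12 weeks past tumor induction, and all received 4.5 nmol of QZ1, a quenched probe that becomes fluorescent and tags nearby cells once proteases cut its S1 linker. After 2 h, live cells without CD45 and CD11b were sorted by probe signal into a QZ1-hi and a QZ1-lo population of at least 100000 cells each, and 4 libraries of each were sequenced. No untreated or tumor-free mice are among these libraries, the purity of the fractions was not assessed, and neither the labels nor the methods say which libraries came from the same mouse, so p-values measure the spread between libraries. Library totals ranged from 18380918 to 26847938 counts. The share of mitochondrial genes averaged 56.0% ± 10.1 for QZ1-hi and 41.9% ± 8.50 for QZ1-lo (SD, n = 4 each; p = 0.114, exact two-sided permutation), and the other genes held 8749446 to 16389316 counts per library. Levels are given as CPM, counts brought to a common library size after TMM scaling, always in the order of libraries 4591, 4593, 4595 and 4597 for QZ1-hi and 4592, 4594, 4596 and 4598 for QZ1-lo. Log2 fold changes are QZ1-hi over QZ1-lo with a standard error (SE), from a quasi-likelihood fit in edgeR, and adjusted p-values are Benjamini-Hochberg values over 15583 genes. A level of 3 counts, taken as the floor, was 0.0894 to 0.179 CPM and covers counting error only.

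Most of the family differed between the populations, in both directions. Of the 30 members that passed the filter on low counts, 14 were higher in QZ1-hi and 6 were lower at an adjusted p under 0.05 (edgeR), or 66.7% of them, against 18.1% of all genes tested (9.88% higher and 8.21% lower). The median size of the log2 change was 1.00 over these 30 members and 0.33 over all genes tested. Levels did not overlap between the populations for 20 of the 30, against 22.6% of all genes tested. The members were chosen with earlier results of these data known, so these contrasts with all genes are descriptions and not tests. Among semaphorins 11 of 18 tested rose and 3 fell, among the 9 plexins 2 rose and 3 fell, and of the neuropilins 1 rose. With 1 library left out in turn, 12 to 14 members were higher and 5 to 7 lower. Sema5b and Sema6c were too low to test, with 29 and 36 counts over the QZ1-hi libraries and 0 and 21 over the QZ1-lo libraries. Scaled by library size only, which moved the median log2 change of all genes from 0.02 to -0.44, 9 members were higher and 8 lower. In these bulk libraries, fewer cells of a type and less RNA per cell cannot be told apart.

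**Figure D1:**
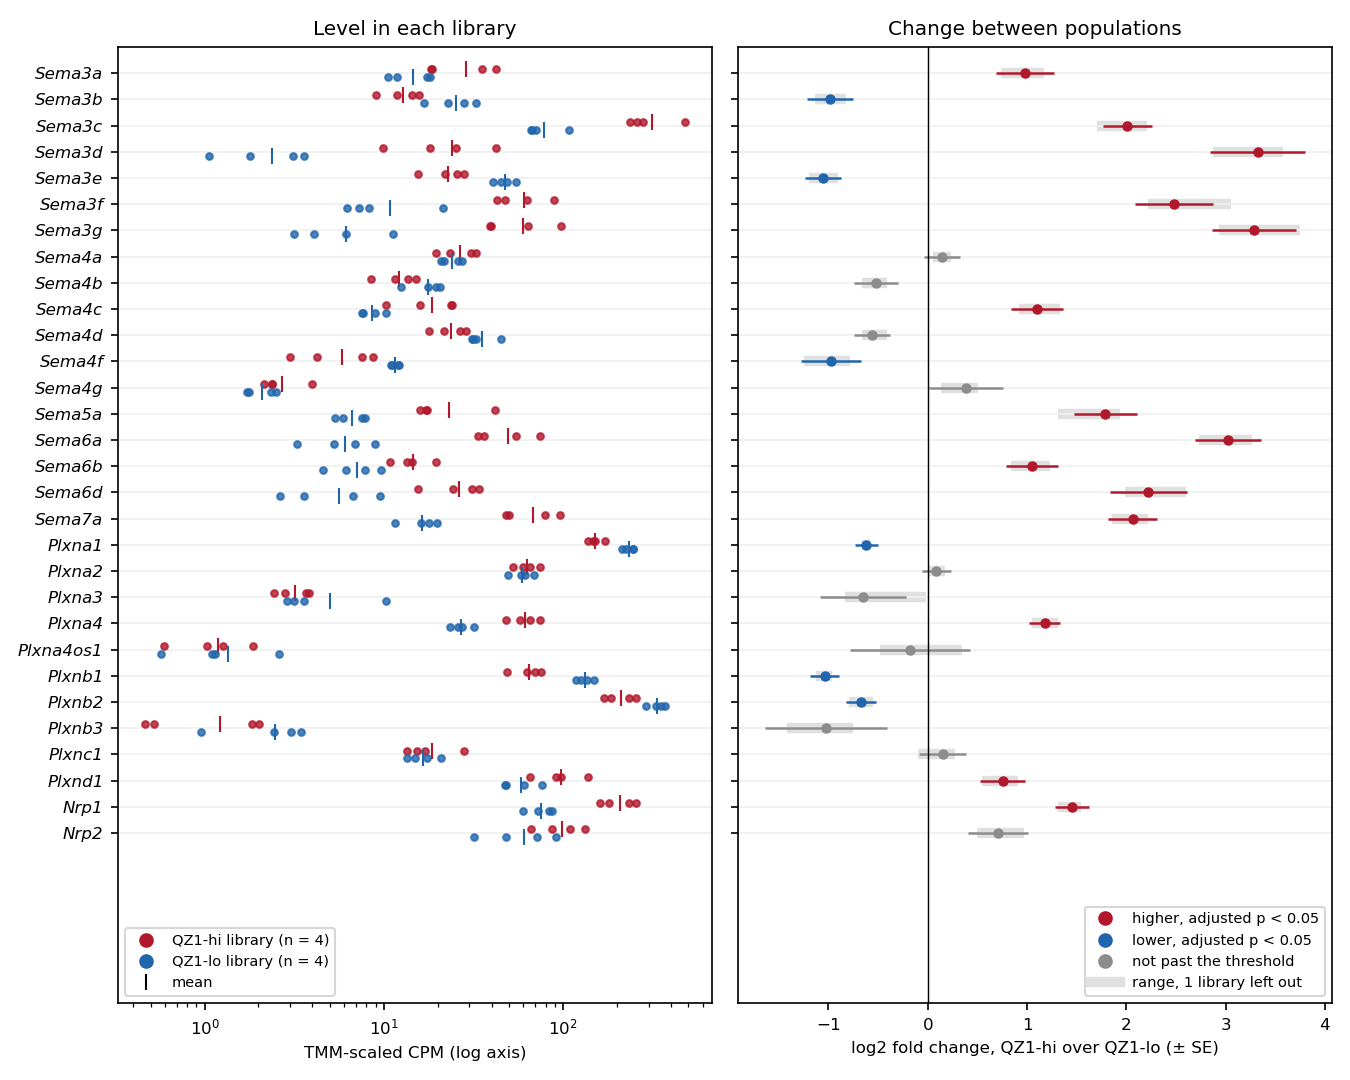
Left, TMM-scaled CPM (log axis) of the 30 members tested, 1 point per library, with the mean of each population as a tick; right, the log2 fold change of QZ1-hi over QZ1-lo with its SE, over a grey band that spans the values with 1 library left out. The largest increases are those of Sema3d (3.32), Sema3g (3.28) and Sema6a (3.02), and the largest decreases that pass the threshold are those of Sema3e (-1.06) and Plxnb1 (-1.04).

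Marker genes of the cells in the sort moved with the populations. For comparison with the counts below, 9.88% of all genes tested were higher in QZ1-hi and 8.21% lower. All 10 endothelial markers listed were higher in QZ1-hi, with a summed level of 1709, 975, 2251 and 969 CPM in QZ1-hi and 97.8, 130.3, 296 and 78.7 CPM in QZ1-lo, led by Cdh5 (353 and 30.4 CPM on average). The highest of the QZ1-lo libraries was 4596, and the highest of the QZ1-hi libraries were 4595 and 4591. Of the other lists, 8 of 9 fibroblast, 5 of 6 lymphatic, 6 of 6 mesothelial, 5 of 9 pericyte and 3 of 6 smooth muscle markers were higher, with Col3a1, Pdpn, Upk3b, Pdgfrb and Des as their most abundant genes, and 1 smooth muscle marker was lower, Cnn1, with 1 count over the QZ1-hi and 56 over the QZ1-lo libraries (named after its values were seen). Des, among the 3 smooth muscle markers that were higher, is a pericyte marker in the study. In QZ1-hi the mesothelial sum was 295.7 CPM in library 4593 and 43.2 to 75.4 CPM in the other 3. Every marker listed for epithelium (7), alveolar type 1 cells (6), club cells (5) and ciliated cells (6) was lower in QZ1-hi. Pdpn, counted here as lymphatic, is also an alveolar type 1 marker in the study, and was higher (log2 fold change 0.72, SE 0.18, edgeR adjusted p = 0.0157). Pdpn averaged 51.8 of the 164 CPM lymphatic sum in QZ1-hi and 31.4 of 39.8 CPM in QZ1-lo. The lymphatic marker that did not pass was Prox1, with overlapping levels (log2 fold change 1.76, SE 0.66, edgeR adjusted p = 0.0946, named after its values were seen). The summed epithelial level, led by Cdh1, was 1070, 1035, 765 and 702 CPM in QZ1-hi and 2437, 2165.9, 2625 and 1928 CPM in QZ1-lo. Alveolar type 2 markers, of which Sftpc was the most abundant at 4064 and 2371 CPM on average, counted 2 of 7 higher, Sftpc and Slc34a2, and none lower. Immune markers were still present in both populations despite the gate, with Ptprc, which encodes CD45, at 131 ± 64.2 and 125 ± 30.0 CPM (SD, n = 4 each), and none of the 9 passed the threshold. Of 8 platelet and red cell markers, led by Hba-a2, 3 platelet genes were higher (Pf4, Ppbp and Itga2b), and of 7 neuroendocrine and nerve markers none passed the threshold and 4 were too low to test. No listed marker was at 0 in all 8 libraries. The part of these cell types in the results below was not tested.

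**Figure D2:**
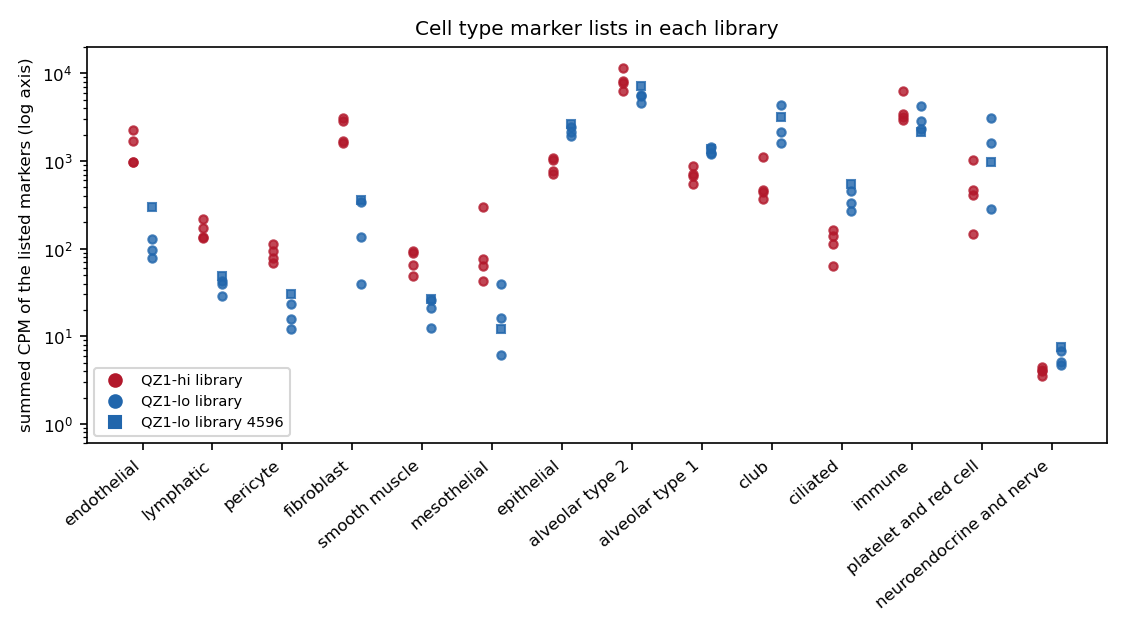
Summed CPM (log axis) of each marker list, 1 point per library, with QZ1-lo library 4596 as a square. Endothelial, lymphatic, pericyte, fibroblast, smooth muscle and mesothelial sums are higher in every QZ1-hi library than in any QZ1-lo library. Epithelial, alveolar type 1, club, ciliated and neuroendocrine and nerve sums are lower in every QZ1-hi library than in any QZ1-lo library. The immune, alveolar type 2 and platelet and red cell sums overlap.

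All 7 class 3 semaphorins passed the threshold, and 5 rose while 2 fell. Sema3c (Entrez Gene 20348), which signals through neuropilins and plexin D1 in the developing heart and vessels, was the most abundant. Its level was 280.4, 236, 481 and 259 CPM in QZ1-hi and 70.6, 67.2, 108 and 66.5 CPM in QZ1-lo. The lowest QZ1-hi library was thus above the highest QZ1-lo library, 4596, with a log2 fold change of 2.01 (SE 0.25, edgeR adjusted p = 0.000428). Sema3g (218877), a class 3 semaphorin made largely by endothelial cells, was at 64.2, 39.3, 97.4 and 39.4 CPM in QZ1-hi and at 4.08, 6.18, 11.2 and 3.15 CPM in QZ1-lo. Sema3f (20350), the ligand of neuropilin-2 that repels endothelial cells, was at 62.8, 47.5, 89.3 and 42.8 CPM against 7.27, 8.30, 21.5 and 6.26 CPM. For both genes library 4595 was the highest of QZ1-hi and library 4596 the highest of QZ1-lo, as for the summed endothelial, lymphatic, pericyte and fibroblast markers, and the populations did not overlap. Library 4596 was the highest of QZ1-lo for the smooth muscle, epithelial, alveolar type 2, ciliated cell and neuroendocrine and nerve sums as well. The log2 fold changes were 3.28 (SE 0.42, edgeR adjusted p = 0.000543) for Sema3g and 2.48 (SE 0.39, edgeR adjusted p = 0.00134) for Sema3f, and 3.75 and 3.06 without library 4596.

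Sema3d (108151), which in the embryo guides the connection of pulmonary veins, rose about as much as Sema3g. It was at 9.96, 42.3, 25.3 and 18.1 CPM in QZ1-hi and at 1.79, 3.58, 3.11 and 1.06 CPM in QZ1-lo, equal to a log2 change of 3.32 (SE 0.48, edgeR adjusted p = 0.000853). Library 4593, the highest for Sema3d, was also the highest of QZ1-hi in the summed mesothelial, smooth muscle, club cell and ciliated cell markers. Sema3a (20346), the best known repellent of axons and a ligand of neuropilin-1, rose less and with more spread. Its values were 42.2, 35.2, 18.6 and 18.4 CPM against 17.5, 18.02, 11.9 and 10.6 CPM, so that the nearest libraries of the populations were almost level. The log2 fold change of 0.98 (SE 0.29, edgeR adjusted p = 0.0398) failed the threshold in 6 of the 8 fits that left out 1 library (0.73 to 1.10, adjusted p = 0.05004 to 0.118), all except those without QZ1-hi libraries 4595 and 4597, and with library size only (0.58, adjusted p = 0.213).

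The class 3 semaphorins that fell were Sema3e and Sema3b. Sema3e (20349) differs from the rest of its class in binding plexin D1 without a neuropilin, and acts on vessel patterning. It was counted at 15.5, 22.1, 27.9 and 25.7 CPM in QZ1-hi and at 45.3, 54.7, 48.4 and 40.9 CPM in QZ1-lo, equal to a log2 change of -1.06 (SE 0.18, edgeR adjusted p = 0.00227). Sema3b (20347) was at 14.4, 9.04, 15.7 and 11.9 CPM against 32.9, 16.8, 22.9 and 28.1 CPM, a log2 fold change of -0.98 (SE 0.23, edgeR adjusted p = 0.0132). For both, every QZ1-lo library was above every QZ1-hi library.

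Neighbours on a chromosome moved together in some places and apart in others. On chromosome 5 of GRCm38, the build that the submitters' notes call mm10, the GENCODE M21 annotation places Sema3d at 12383385-12588948, Sema3a at 13125414-13602565, Sema3e at 14025276-14256689 and Sema3c at 17574281-17730268, all on the forward strand. Sema3d and Sema3a, which both rose, are 536 kb apart, and Sema3e, which fell, lies 422.7 kb past Sema3a and 3.32 Mb before Sema3c, which both rose. On chromosome 9, Sema3b (107597674-107609229, reverse strand), which fell, and Sema3f (107681500-107710475, reverse strand), which rose, are separated by 72.3 kb. No class 3 semaphorin has an exon that overlaps another annotated gene.

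The stretch around the start of transcription is shown for members with the largest changes, Sema3d and Sema3g among those that rose and Sema3e and Plxnb1 among those that fell, because members that moved together may be compared in it. Each window is 300 bases, from 250 before to 50 after the RefSeq start in GRCm38.p6, read 5′ to 3′ on the gene's own strand, which is the forward strand for all 4. They lie at chr5:12382916-12383215 (Sema3d), chr14:31217623-31217922 (Sema3g), chr5:14025026-14025325 (Sema3e) and chr9:109095186-109095485 (Plxnb1). The Sema3d window ends before the GENCODE M21 gene start of 12383385 given above, so the 2 annotations differ on where that gene begins. Capitals mark matches, on either strand, to CCGGAA (the core of many ETS sites), ACAAAG (SOX), ACGTG (part of the E-box and of hypoxia elements) and GGAATG (TEAD).
Sema3d: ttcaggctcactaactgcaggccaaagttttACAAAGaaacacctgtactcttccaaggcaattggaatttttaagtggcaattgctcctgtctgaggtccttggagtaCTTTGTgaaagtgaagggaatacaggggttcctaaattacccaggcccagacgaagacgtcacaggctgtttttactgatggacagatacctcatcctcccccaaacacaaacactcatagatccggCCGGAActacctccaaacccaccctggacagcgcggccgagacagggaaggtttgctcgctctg
Sema3g: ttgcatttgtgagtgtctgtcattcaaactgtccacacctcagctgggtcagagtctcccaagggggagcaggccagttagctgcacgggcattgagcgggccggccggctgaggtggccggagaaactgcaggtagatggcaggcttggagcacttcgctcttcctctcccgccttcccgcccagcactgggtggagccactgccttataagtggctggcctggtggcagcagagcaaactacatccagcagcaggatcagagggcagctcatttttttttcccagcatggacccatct
Sema3e: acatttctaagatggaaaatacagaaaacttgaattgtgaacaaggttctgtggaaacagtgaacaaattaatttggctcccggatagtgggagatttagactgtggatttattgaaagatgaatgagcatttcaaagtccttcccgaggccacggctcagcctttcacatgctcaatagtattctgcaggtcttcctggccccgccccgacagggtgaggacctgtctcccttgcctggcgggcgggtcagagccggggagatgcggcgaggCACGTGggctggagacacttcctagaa
Plxnb1: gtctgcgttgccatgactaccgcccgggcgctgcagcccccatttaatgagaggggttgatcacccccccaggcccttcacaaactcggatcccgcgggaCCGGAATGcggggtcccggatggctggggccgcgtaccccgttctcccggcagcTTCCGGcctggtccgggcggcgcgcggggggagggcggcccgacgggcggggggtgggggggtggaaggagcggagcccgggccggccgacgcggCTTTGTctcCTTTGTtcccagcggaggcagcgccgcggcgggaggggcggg
Sema3d held 1 match to CCGGAA and 2 to ACAAAG, Sema3g held none of the 4 motifs, Sema3e held ACGTG on both strands at a single place, and Plxnb1 held 2 matches to CCGGAA, 2 to ACAAAG and 1 to GGAATG, which shares GGAA with a CCGGAA match. Of all 32851 RefSeq windows of this length, 14.9% hold CCGGAA, 18.7% ACAAAG, 19.6% ACGTG and 14.7% GGAATG. A match describes letters only, and CCGGAA and ACAAAG were found both in a window of a member that rose and in one of a member that fell.

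Per length, the mix of class 3 ligands also differed. Levels were divided by the merged exon length of each gene, since CPM alone favours long transcripts. Summed over the class, the level was 74.4, 62.5, 117 and 61.9 CPM per kb in QZ1-hi and 25.4, 23.5, 32.9 and 22.4 CPM per kb in QZ1-lo. Sema3c made up 52.8% to 58.6% of it in QZ1-hi and 38.9% to 45.8% in QZ1-lo. Sema3g rose from 3.10% to 7.51% of the class in QZ1-lo to 13.8% to 19.0% in QZ1-hi, with no overlap, whereas Sema3e went from 15.8% to 25.1% down to 2.24% to 4.48% and Sema3b from 14.6% to 27.1% down to 2.81% to 4.06%. These shares are descriptions of the libraries, with no test.

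**Figure D3:**
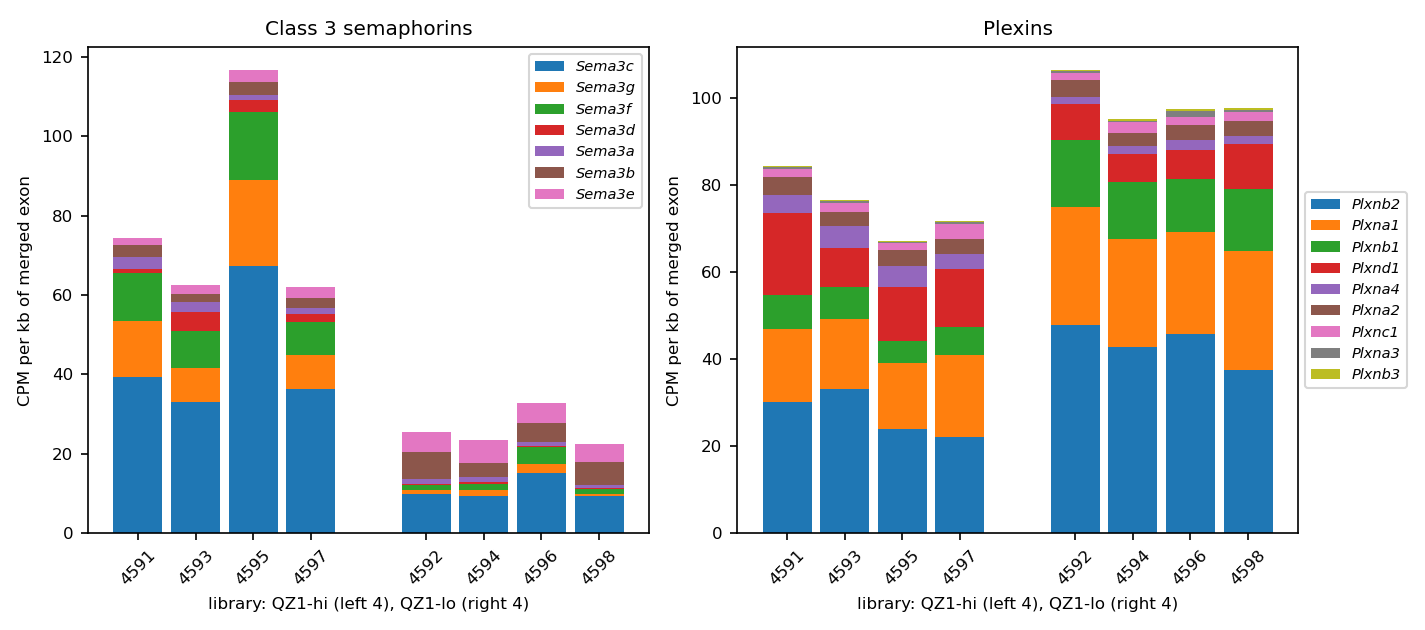
Stacked CPM per kb of merged exon for the 7 class 3 semaphorins (left) and the 9 plexins (right) in each library, with QZ1-hi as the left 4 bars and QZ1-lo as the right 4. The class 3 total is 61.9 to 117 in QZ1-hi and 22.4 to 32.9 in QZ1-lo, and the plexin total is 67.2 to 84.4 in QZ1-hi and 95.2 to 106 in QZ1-lo.

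Transmembrane semaphorins of class 6, which bind plexin A receptors, were higher in QZ1-hi for all 3 that could be tested. Sema6a (20358), a ligand of plexin A2 and plexin A4, was at 54.4, 33.5, 74.4 and 36.2 CPM in QZ1-hi and at 5.31, 8.95, 6.88 and 3.27 CPM in QZ1-lo. Its log2 fold change of 3.02 (SE 0.33, edgeR adjusted p = 0.000278) had the smallest p of the family, the 99th of all genes tested. Sema6d (214968), a ligand of plexin A1, was at 30.97, 24.3, 34.1 and 15.5 CPM against 2.65, 9.52, 6.77 and 3.60 CPM, a log2 fold change of 2.22 (SE 0.39, edgeR adjusted p = 0.00237). Neither gene overlapped between the populations. Sema6b (20359), which signals through plexin A4, was at 14.3, 10.8, 19.7 and 13.5 CPM against 6.14, 4.60, 9.59 and 7.86 CPM, also without overlap. Its log2 fold change was 1.05 (SE 0.26, edgeR adjusted p = 0.017), and fell to 0.84 when QZ1-hi library 4595 was left out (adjusted p = 0.0599) and to 0.59 with library size only (adjusted p = 0.218).

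Sema7a and Sema5a were also higher. Sema7a (20361), the member held to the membrane by a lipid anchor, which binds plexin C1 and beta 1 integrin, was at 95.6, 48.01, 79.7 and 50.1 CPM in QZ1-hi and at 16.2, 17.8, 19.7 and 11.6 CPM in QZ1-lo. With a log2 fold change of 2.06 (SE 0.25, edgeR adjusted p = 0.000389) it was the semaphorin with the highest level per length after Sema3c in QZ1-hi (20.7 ± 7.04 CPM per kb, SD, n = 4). Sema5a (20356), which carries thrombospondin repeats next to its semaphorin domain, was at 17.4, 41.9, 16.02 and 17.2 CPM against 7.57, 7.89, 5.93 and 5.36 CPM. Library 4593 stood apart from the rest of QZ1-hi, and it was also the highest of QZ1-hi for the same 4 marker lists as with Sema3d. The log2 fold change was 1.79 (SE 0.32, edgeR adjusted p = 0.00263) with it and 1.31 without it.

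Class 4, whose members bind plexin B receptors and plexin D1 and several of which act in the immune system, was mixed. Of 6 genes, 1 rose, 1 fell and 4 did not pass the threshold. The share called was 33.3%, against 18.1% of all genes tested (9.88% higher and 8.21% lower). That difference, over so few genes, was not tested. Sema4c (20353), a ligand of plexin B2, was at 23.6, 15.9, 24.1 and 10.3 CPM in QZ1-hi and at 8.97, 7.53, 10.3 and 7.61 CPM in QZ1-lo (log2 fold change 1.10, SE 0.26, edgeR adjusted p = 0.0129), and did not pass with library size only (0.70, adjusted p = 0.152). The lowest QZ1-hi and the highest QZ1-lo library were nearly equal, and 334 bases of its exons overlap D430040D24Rik on the opposite strand, whose reads can be told apart only if the counting used strand, which is not stated. Sema4f (20355) was at 7.54, 8.69, 3.01 and 4.23 CPM against 12.2, 11.1, 10.96 and 11.99 CPM, a log2 fold change of -0.97 (SE 0.30, edgeR adjusted p = 0.047). It failed the threshold in 6 of the 8 fits that left out 1 library (adjusted p = 0.0732 to 0.122), all except those without QZ1-hi libraries 4591 and 4593.

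Sema4d (20354), the ligand of plexin B1 also known as CD100, narrowly missed the threshold. Its levels were 28.9, 21.7, 17.9 and 26.7 CPM in QZ1-hi and 45.2, 32.5, 31.5 and 31.2 CPM in QZ1-lo, without overlap, and its log2 fold change was -0.56 (SE 0.18, edgeR adjusted p = 0.0562). It passed with DESeq2's Wald test (adjusted p = 0.0316), with limma-voom (adjusted p = 0.0377) and with edgeR without QZ1-hi library 4591 (adjusted p = 0.0425). Sema4d also passed in edgeR with DESeq2 size factors (adjusted p = 0.0478) and with library size only (log2 fold change -1.03, adjusted p = 0.0104). Sema4a (20351), which regulates T cells, was at 30.7, 23.4, 19.7 and 32.7 CPM against 27.5, 21.8, 20.9 and 26.1 CPM, and the populations overlapped (log2 fold change 0.15, SE 0.18, edgeR adjusted p = 0.669). Sema4b ranged from 8.50 to 20.7 CPM and Sema4g from 1.72 to 3.98 CPM over the 8 libraries, and their log2 changes, -0.52 (SE 0.22) and 0.38 (SE 0.37), did not pass, though Sema4b passed with library size only (-0.98, adjusted p = 0.0194).

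Among the receptors, the 3 plexins with the highest level per length in QZ1-lo fell. Plxnb2 (140570), the receptor of Sema4c in epithelium and other tissues, was at 234, 256, 185 and 170.1 CPM in QZ1-hi and at 369, 331, 354 and 289.5 CPM in QZ1-lo, equal to a log2 change of -0.67 (SE 0.15, edgeR adjusted p = 0.00966). Plxna1 (18844), which pairs with neuropilins and also binds Sema6d, was at 151, 146, 138 and 171 CPM against 245, 224, 212 and 247 CPM (log2 fold change -0.62, SE 0.11, edgeR adjusted p = 0.00328). Plxnb1 (235611), the receptor of Sema4d, fell most, from 148, 126, 118 and 137 CPM in QZ1-lo to 75.3, 70.04, 48.97 and 62.7 CPM in QZ1-hi. Its log2 fold change was -1.04 (SE 0.15, edgeR adjusted p = 0.000816). For these 3 receptors each QZ1-lo library was above each QZ1-hi library. The same held for the summed epithelial, alveolar type 1, club, ciliated cell and neuroendocrine and nerve markers. The neuroendocrine and nerve sum was low, at 3.52 to 4.41 CPM in QZ1-hi and 4.71 to 7.64 CPM in QZ1-lo. Exons of Plxna1 and Plxnb1 overlap Gm26811 (970 bases) and Gm7628 (257 bases) on the opposite strand.

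Plexins that rose were Plxna4 and Plxnd1. Plxna4 (243743), a receptor of class 3 and class 6 semaphorins, was at 57.6, 74.3, 65.2 and 48.3 CPM in QZ1-hi and at 23.3, 26.00, 31.99 and 27.1 CPM in QZ1-lo. The populations did not overlap, and the log2 fold change was 1.18 (SE 0.16, edgeR adjusted p = 0.000609), though 0.72 with library size only (adjusted p = 0.0538). Its exons overlap Plxna4os3 on the opposite strand by 110 bases. Plxnd1 (67784), the plexin of endothelial cells and the receptor of Sema3e, was at 138, 65.1, 91.3 and 97.7 CPM against 60.4, 47.7, 48.2 and 76.3 CPM. QZ1-hi library 4593 lay below QZ1-lo library 4598, so the populations overlapped. Its log2 fold change of 0.75 (SE 0.22, edgeR adjusted p = 0.0381) failed the threshold in 6 of the 8 fits that left out 1 library (0.54 to 0.77, adjusted p = 0.063 to 0.109), all except those without QZ1-hi library 4593 and QZ1-lo library 4598. It also failed with library size only (0.34, adjusted p = 0.428).

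The other plexins did not pass the threshold. Plxna2 (18845), a receptor of Sema6a, was at 74.2, 52.4, 65.2 and 59.9 CPM in QZ1-hi and at 69.2, 49.02, 61.05 and 57.9 CPM in QZ1-lo, equal to a log2 change of 0.09 (SE 0.14, edgeR adjusted p = 0.761). Plxnc1, the receptor of Sema7a, ranged from 13.5 to 28.2 CPM, with a log2 fold change of 0.15 (SE 0.24). Plxna3, Plxnb3 and the antisense RNA Plxna4os1 were low, with 0.466 to 10.3 CPM over all libraries and log2 fold changes of -0.65 (SE 0.43), -1.03 (SE 0.62) and -0.18 (SE 0.61). The value of Plxna3 rested on QZ1-lo library 4596 (10.3 CPM), without which it was -0.01, and it was -0.20 with limma-voom. Plxnb2 and Plxna1 together with Plxnb1 led the plexins of QZ1-lo per length, with 43.5 ± 4.49, 25.7 ± 1.87 and 13.8 ± 1.37 CPM per kb (SD, n = 4 each), while in QZ1-hi the third place went to Plxnd1 with 13.4 ± 4.11 CPM per kb, ahead of Plxnb1 with 6.70 ± 1.19. Plxnd1 and Plxna1 (16.7 ± 1.57 CPM per kb) lay within their spread of each other in QZ1-hi.

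Nrp1 rose and Nrp2 did not pass the threshold. Nrp1 (18186), the co-receptor of Sema3a and of VEGF-A on endothelial cells, was at 233, 161, 255 and 181 CPM in QZ1-hi and at 87.02, 72.9, 83.2 and 59.9 CPM in QZ1-lo, with no overlap and a log2 fold change of 1.45 (SE 0.17, edgeR adjusted p = 0.000397). Nrp2 (18187), the co-receptor of Sema3f and of VEGF-C in veins and lymphatics, was at 109.7, 86.4, 66.1 and 133 CPM against 71.6, 47.96, 31.7 and 91.1 CPM. The Nrp2 levels overlapped, with a log2 fold change of 0.70 (SE 0.30, edgeR adjusted p = 0.147), and passed only in the fit without QZ1-lo library 4598 (0.97, adjusted p = 0.0478). Each QZ1-hi library was above the QZ1-lo library with the next number. No source links adjacent numbers to a mouse, and no paired fit was made. Per length, Nrp1 made up 62.2% to 82.3% of the neuropilin level in QZ1-hi and 44.3% to 76.1% in QZ1-lo.

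**Figure D4:**
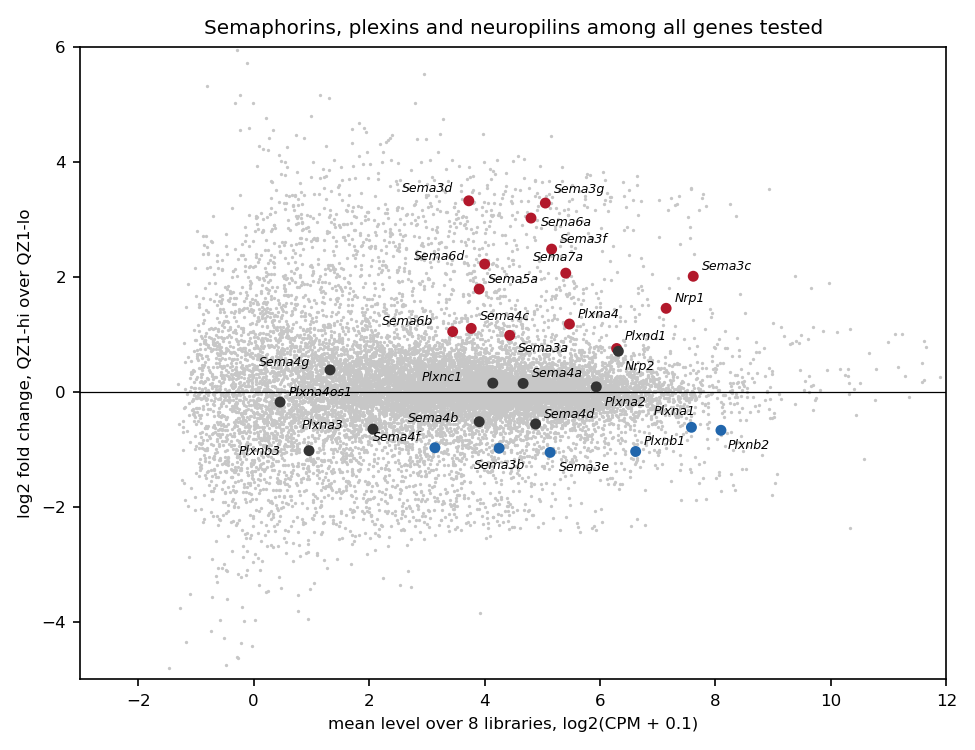
Mean level over the 8 libraries, as log2(CPM + 0.1), against the log2 fold change of QZ1-hi over QZ1-lo for the 15583 genes tested (grey, 17 of them outside the axes), with members that were higher in red, lower in blue and not past the threshold in black. Sema3c, Nrp1, Plxna1 and Plxnb2 are the most abundant members, and the former pair lies above 0 and the latter pair below.

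The log2 fold changes of ligands were read beside those of the receptors named with them above, pairs that were put together after their values were seen. Sema3c (2.01) rose with Plxnd1 (0.75) and Nrp1 (1.45), Sema3a (0.98) rose with Nrp1, and Sema6a (3.02) and Sema6b (1.05) rose with Plxna4 (1.18). In other pairs the directions were opposite. Sema3e fell (-1.06) while Plxnd1 rose, and Sema4c (1.10) and Sema6d (2.22) rose while Plxnb2 (-0.67) and Plxna1 (-0.62) fell. Among the genes of these pairs, Sema3a and Plxnd1 each failed the threshold in 6 of the fits that left out 1 library. Sema3a, Sema4c, Sema6b, Plxna4 and Plxnd1 also failed with library size only. For a further set at least 1 gene did not pass the threshold, namely Sema7a (2.06) with Plxnc1 (0.15), Sema6a with Plxna2 (0.09), Sema3f (2.48) and Sema3c with Nrp2 (0.70), and Sema4d (-0.56) with Plxnb1 (-1.04). Differences between genes were not tested, and which cells each transcript came from was not measured.

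The other genes of the pathway were read from the same fit, in lists chosen with earlier results of these data known. Of 6 VEGF and other neuropilin ligands listed, 4 rose and 2 did not pass, or 66.7% higher against 9.88% of all genes tested, with a median log2 change of 2.15 beside 0.02. Vegfc, the ligand of Nrp2 and of the lymphatic receptor VEGFR3, averaged 0.965 ± 0.610 CPM in QZ1-lo and 8.81 ± 1.31 CPM in QZ1-hi (SD, n = 4 each), with a log2 fold change of 3.19 (SE 0.44, edgeR adjusted p = 0.000726). Vegfd and Hgf rose by 3.11 (SE 0.41) and 2.11 (SE 0.25) on the log2 scale, and Pgf, named after its values were seen, by 2.19 (SE 0.64) with overlapping levels. Vegfa, the most abundant of the list, was at 217 ± 16.6 CPM in QZ1-hi and 249 ± 34.8 CPM in QZ1-lo (SD, n = 4 each; log2 fold change -0.20, SE 0.13, edgeR adjusted p = 0.354). Of 14 co-receptors and other semaphorin receptors, 4 rose, 1 fell, 7 did not pass and 2 were too low to test. The share of those tested that rose was 33.3%, against 9.88% of all genes, and the share that fell, 8.33%, was near the background of 8.21%. Those that rose were Kdr (VEGFR2; 2.54, SE 0.40), Flt1 (VEGFR1; 1.81, SE 0.16), Flt4 (VEGFR3; 3.30, SE 0.45) and Itga1, the integrin subunit that pairs with beta 1 (2.67, SE 0.27). L1cam, an adhesion molecule that joins neuropilin-1 in the Sema3a receptor of neurons, fell from 31.4 ± 6.14 to 13.98 ± 2.05 CPM (SD, n = 4 each; log2 fold change -1.17, SE 0.18). Met, a kinase that pairs with plexin B1, had a log2 fold change of -0.45 (SE 0.19, edgeR adjusted p = 0.131).

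Inside the cell, 8 of 39 listed plexin effectors rose, 4 fell, 25 did not pass and 2 were too low to test, and the median log2 change was 0.17. Those that rose were 21.6% of the effectors tested and those that fell 10.8%, against 9.88% and 8.21% of all genes tested, so that the share that fell was near the background. Fyn, a kinase recruited by plexin A, rose from 14.6 ± 3.03 to 38.4 ± 5.60 CPM (SD, n = 4 each; log2 fold change 1.40, SE 0.18, edgeR adjusted p = 0.00054). Dpysl3 and Dpysl2, collapsin response mediators that bind tubulin downstream of Sema3a, rose by 2.63 (SE 0.38) and 0.91 (SE 0.19), and Arhgef12, an exchange factor bound by plexin B, by 0.66 (SE 0.12). Genes that fell were Farp1 (-0.89, SE 0.19), a Rac exchange factor, Rhof (-1.26, SE 0.27), Arhgap35 (-0.50, SE 0.11), and Pak1 (-0.67, SE 0.18), a kinase activated by Rac.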

How the data were processed

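The authors counted reads on genes from aligned reads with Rsubread in R and deposited raw counts per gene, without normalization, for 27179 Entrez Gene identifiers in 8 libraries made with a stranded total RNA kit. The submitters' processing notes name the build mm10 and DESeq2; the aligner, annotation and strand setting are not given in the sources used here. Symbols were matched for 25293 identifiers, and 1886 had none. The fit used edgeR 4.0.16 under R 4.3.3 (TMM, filterByExpr with a minimum count of 10, quasi-likelihood test, Benjamini-Hochberg threshold of 0.05), with no covariate. Each SE was derived from the fitted change and its F statistic. Alternatives were DESeq2 1.42.0, limma-voom 3.58.1, other scalings and filters, and each library left out in turn. Lengths and overlaps come from GENCODE M21. The fits were tested on simulated data first. There edgeR called 12 of 86 genes changed 2-fold, 106 of 114 changed 4-fold and 6 unchanged genes. DESeq2 called 25, 108 and 25 of these, and limma-voom 11, 104 and 7. Not passing the threshold thus does not show that a gene was unchanged. The members and lists were chosen with earlier results of these data known. All members could be named; those called or above 20 CPM in a population are given by library. Of the pathway lists, up to 4 genes per direction that were called and did not overlap are named by smallest adjusted p, with Vegfa, Kdr, Flt1 and Met in any case. No 2 libraries agreed within sampling noise.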

Additional observations from a re-analysis of the deposited data

Results flagged for a closer look

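A sample lay far from the other 3 of its population, by Dixon's test at the 95% level, in 6 of 60 groups of 4 libraries, where chance alone gives about 1 in 20. QZ1-lo library 4596 was high for Sema3c (108 CPM), Sema3f (21.5 CPM) and Plxna3 (10.3 CPM), and leaving it out gave log2 fold changes of 2.21, 3.06 and -0.01. QZ1-hi library 4593 was high for Sema5a (41.9 CPM). QZ1-lo library 4592 was high for Sema4d (45.2 CPM), and QZ1-hi library 4591 for Sema4g (3.98 CPM). Library 4596 was also the highest of QZ1-lo in the summed endothelial, lymphatic, pericyte, fibroblast, smooth muscle, epithelial, alveolar type 2, ciliated cell and neuroendocrine and nerve markers, and the mesothelial, smooth muscle, club and ciliated cell markers highest among QZ1-hi in library 4593; their part in these values was not tested.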

How the results depend on the processing

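With library size only, 882 genes were higher and 2509 lower, 9 members were higher, and 10 pathway genes were higher and 9 lower, against 1540, 1280, 14, 16 and 5 with TMM; the 5 members lost were Sema3a, Sema4c, Sema6b, Plxna4 and Plxnd1, and Sema4b and Sema4d were gained as lower. Sign changes were seen only for members that did not pass the threshold. With library size only the log2 fold change was -0.33 for Sema4a, -0.022 for Sema4g, -0.37 for Plxna2 and -0.35 for Plxnc1, and with limma-voom it was 0.14 for Plxna4os1. With 1 library left out, values ranged from -0.0023 to 0.17 for Plxna2, from -0.10 to 0.28 for Plxnc1 and from -0.48 to 0.35 for Plxna4os1. Of the members called, 9 of 14 that rose and 5 of 6 that fell passed in the same direction in all 16 alternatives. Sema5b, Sema6c, Plxnb3 and Plxna4os1 had the fewest counts of the members, and the part of depth in their values was not tested. In CPM instead of CPM per kb, Sema3c made up 59.5% of class 3 in QZ1-hi and Plxnb2 38.6% of the plexins in QZ1-lo, against 55.5% and 43.8%. No paired analysis was possible because the labels give no replicate numbers, and neither they nor the methods link libraries by mouse; library numbers alternate between the populations, but no source says that adjacent numbers share a mouse.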
